A study of Homo sapiens with 5 samples.

Results

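The genes described here encode the nuclear subunits of mitochondrial complex I, and they are the protein-coding genes of GENCODE release 44 on hg19 whose symbol starts with NDUFA, NDUFB, NDUFC, NDUFS, NDUFV or NDUFAB followed by a number. The rule takes 38 of 20163 protein-coding genes, spread over 18 chromosomes, and it uses names alone and no measured value. A gene counted as having a peak when a ChIP-seq peak of a library overlapped the gene body or the 10 kb on either side by at least 1 bp. A start-site peak overlapped the 1 kb on either side of the start of the canonical transcript. NDUFB6 carries no canonical tag, so its annotated gene start was used.

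The study asked where Nrf2 and HIF1α bind in the genome of cells exposed to inorganic arsenic (iAs). It used BEAS-2B, an immortalized line of human bronchial epithelial cells, starved of serum overnight and then kept for 6 h without iAs (control) or with 1 µM iAs. Each factor was immunoprecipitated in each condition, which gave 4 libraries, 1 library per condition, so nothing below can be checked against replicates, and control and iAs values are compared without a test. An input DNA library was also sequenced, and it has no peak list here. By the labels, the Nrf2 antibody came from Santa Cruz and the HIF1α antibody from Abcam, whereas the methods give Active Motif as the source. The lists held 3204 Nrf2 peaks in control and 7743 with iAs, and 6008 HIF1α peaks in control and 12826 with iAs. They give positions without heights or scores, so a peak is described by its presence, place and width, and the read depth behind it is unknown. Peak positions carry no expression, so the cell line label could not be checked against marker genes, and a peak from a pool of cells does not tell how many of the cells were bound.

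Complex I oxidizes NADH with a flavin, passes the electrons along iron-sulfur clusters to ubiquinone and pumps protons across the inner mitochondrial membrane. Its core subunits carry out the chemistry, and the accessory subunits surround them in a matrix arm and a membrane arm. HIF1α is the oxygen-regulated transcription factor that lowers mitochondrial respiration in hypoxia, and Nrf2 (NFE2L2) is the factor that turns on antioxidant and metabolic genes under oxidants and metals such as arsenite. Nrf2 is a different protein from nuclear respiratory factor 1, which is known for binding promoters of respiratory chain genes.

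HIF1α peaks lay at the start sites of complex I genes in both conditions, and at more of them than Nrf2 peaks did, in libraries that also held more peaks in all. In control cells, 16 of the 38 start sites had a HIF1α peak (42.1%, beside 16.7% of all genes), and with iAs 25 had one (65.8%, beside 42.6%). A Nrf2 peak lay at the start of NDUFA4, NDUFA10 and NDUFA11 in control cells, and at these and NDUFS3 with iAs, which is 7.89% and 10.5% of the members beside 2.32% and 5.17% of all genes. The sequences around the widest HIF1α start-site peaks with iAs are given first, because they are the places where the factor's peaks at these genes were broadest. The 6 widest belonged to NDUFS7 (961 bp), NDUFA4 (642 bp), NDUFB2 (631 bp), NDUFS6 (629 bp), NDUFV3 (533 bp) and NDUFC2 (490 bp).

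The sequences are read from hg19 along the strand of the gene, 5′ to 3′, and each is the stretch of the 250 bases upstream of the start that no annotated UTR covers. Capitals mark matches on either strand to the HIF core letters ACGTG or GCGTG, to GCGCATGCG (bound by nuclear respiratory factor 1) and to CCAAT (bound by NF-Y). A match describes letters and not a bound site. NDUFA4 lies on the minus strand, and its stretch chr7:10979781-10980030 held none of the 8 motifs searched. This stretch lay whole inside the HIF1α peak with iAs and also whole inside the control HIF1α peak. NDUFB2 (plus strand, chr7:140396258-140396470) had 47 of 213 bases inside the peak, NDUFS6 (plus strand, chr5:1801271-1801447) had all 177, NDUFV3 (plus strand, chr21:44313169-44313377) had 75 of 209 in its 533 bp peak and 46 in a separate peak of 272 bp, and NDUFC2 (minus strand, chr11:77790912-77791158) had 226 of 247. Of the 5 stretches, NDUFV3 and NDUFC2 held ACGTG, in NDUFC2 on the opposite strand. The ACGTG of NDUFC2 lay inside the peak, whereas that of NDUFV3 and both of its GCGTG matches lay in the gap between its peaks, and the GCGTG of NDUFB2 lay outside its peak.
NDUFA4: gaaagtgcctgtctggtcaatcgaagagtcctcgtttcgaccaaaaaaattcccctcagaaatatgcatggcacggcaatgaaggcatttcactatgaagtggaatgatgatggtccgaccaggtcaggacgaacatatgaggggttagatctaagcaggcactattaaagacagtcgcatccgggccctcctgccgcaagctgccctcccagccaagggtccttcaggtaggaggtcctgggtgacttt
NDUFB2: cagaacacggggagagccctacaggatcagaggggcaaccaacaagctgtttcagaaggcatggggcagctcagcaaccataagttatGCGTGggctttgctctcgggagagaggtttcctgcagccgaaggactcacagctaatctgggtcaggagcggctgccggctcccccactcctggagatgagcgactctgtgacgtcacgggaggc
NDUFS6: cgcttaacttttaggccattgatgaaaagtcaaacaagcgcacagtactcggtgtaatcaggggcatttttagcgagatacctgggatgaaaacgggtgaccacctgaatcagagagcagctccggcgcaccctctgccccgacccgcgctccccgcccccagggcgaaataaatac
NDUFV3: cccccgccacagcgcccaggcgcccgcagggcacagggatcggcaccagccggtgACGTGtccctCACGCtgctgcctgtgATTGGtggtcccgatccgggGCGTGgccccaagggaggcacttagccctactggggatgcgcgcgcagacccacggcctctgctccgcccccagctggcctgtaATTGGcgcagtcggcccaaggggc
NDUFC2: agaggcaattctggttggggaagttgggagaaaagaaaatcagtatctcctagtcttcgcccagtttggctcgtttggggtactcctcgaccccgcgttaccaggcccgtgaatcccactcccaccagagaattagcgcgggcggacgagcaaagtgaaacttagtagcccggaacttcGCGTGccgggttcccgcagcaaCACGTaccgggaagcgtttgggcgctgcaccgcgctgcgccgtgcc

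In the promoters of NDUFS7 and NDUFS6, annotated UTRs cover the part with the matches, so only short sites are shown. NDUFS7 (plus strand) has ACGTG on both strands as CACGTG, with its first base 187 bp before the start (chr19:1383709-1383733), and the nuclear respiratory factor 1 letters further on (chr19:1383822-1383850). NDUFS6 (plus strand) has the latter letters too (chr5:1801465-1801493). All 3 sites lay inside the HIF1α peak with iAs. Both NDUFS7 sites also lay inside the control HIF1α peak, whereas the NDUFS6 site lay outside it.
NDUFS7, CACGTG site: ccgcggccccCACGTGcgcactccg
NDUFS7, GCGCATGCG site: ttccggtttcCGCATGCGCtccgagccgc
NDUFS6, GCGCATGCG site: cagaagccgtGCGCATGCGttagcgctaa

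Over gene bodies and the 10 kb around them, HIF1α peaks were found at 22 of the 38 members in control cells (57.9%, 42.2% to 72.1%), where 29% of all protein-coding genes had one. With iAs the count was 27 (71.1%, 55.2% to 83%), beside 54.7% of all genes. These and later intervals are Wilson 95% intervals that treat each gene as 1 draw, so they cover the counting of genes only. Complex I genes are short, with a median length of 13.8 kb (2.44 to 133 kb) against 27.2 kb for all genes. Genes of similar length, taken in 20 length bins, would give 10.7 members with a HIF1α peak in control and 20.8 with iAs, against the 22 and 27 found. In control cells the members' share was thus above that of genes of similar length by more than its counting interval, and with iAs it was above by little more (the interval starts at 55.2%, against 54.8%).

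At start sites the interval of the HIF1α share was 27.9% to 57.8% in control and 49.9% to 78.8% with iAs, both above the shares of all genes given before. Genes of similar length would give 6.47 and 15.8 members, where 16 and 25 were found. The increase in the members' count went with a list of HIF1α peaks that was longer with iAs. Taking the same number of widest peaks from each condition gave 14 start sites with iAs against 16 in control. This choice kept the control list whole, down to 190 bp, and left out iAs peaks narrower than 356 bp. The count with iAs could thus only fall, and the order of these counts does not compare the conditions at the same width limit. Over all genes that choice left 26.0% with iAs and 16.7% in control. With the wider 50% of each list, 10 start sites had a peak in control and 14 with iAs, beside 9.86% and 27.4% of all genes. A count of 14 of 38 is 36.8% (23.4% to 52.7%), so under either choice the iAs background lay inside the interval. The count of 10 in control is 26.3% (15% to 42%), and its background lay below the interval.

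Promoters rich in CpG, with a GC content of at least 55% and an observed-to-expected CpG ratio of at least 0.6 over 500 bp on either side of the start, made up 26 of the 38 members and 59.5% of all genes. Of these 26, 12 had a HIF1α start-site peak in control (46.2%, 28.8% to 64.5%), beside 23.5% of all CpG-rich promoters, and 22 with iAs (84.6%, 66.5% to 93.9%), beside 65.2%. The 4 CpG-rich members without one with iAs were NDUFA2, NDUFA3, NDUFA13 and NDUFS8. Among the 12 other members, 4 had a start-site peak in control and 3 with iAs, beside 6.68% and 9.33% of all such genes. The part of base composition in the peak calls was not tested.

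**Figure D1:**
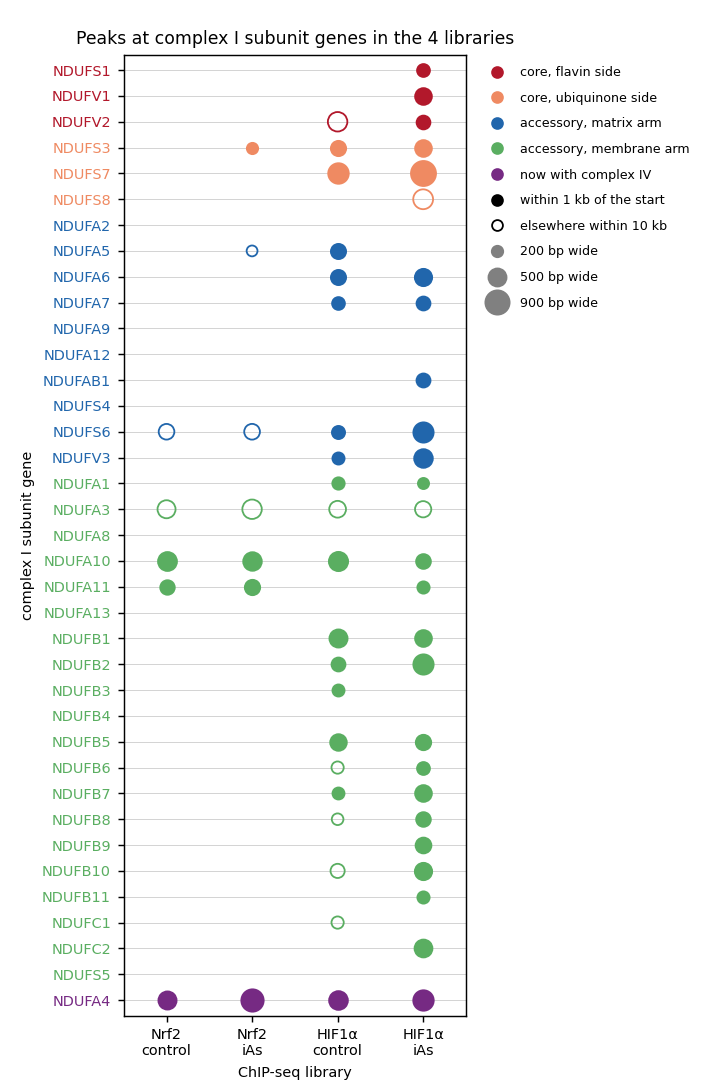
Each of the 37 rows is a complex I subunit gene, grouped by role, and each column a ChIP-seq library; filled circles are peaks within 1 kb of the start, open circles are peaks elsewhere within 10 kb, and circle area grows with the width of the widest such peak in bp. The HIF1α columns hold circles for 21 and 26 of these genes, the Nrf2 columns for 5 and 7, and 8 rows are empty.

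The core subunits of the flavin side take electrons from NADH. NDUFV1, which holds the flavin, had no peak in control and a HIF1α peak of 431 bp over its start with iAs (chr11:67374274-67374704). NDUFS1, the large iron-sulfur subunit, likewise had no peak in control and 255 bp with iAs (chr2:207023980-207024234), and NDUFV2, another iron-sulfur subunit, had 293 bp with iAs (chr18:9102474-9102766). All 3 flavin-side starts had a HIF1α peak with iAs and none in control (43.9% to 100%), beside 27.7% of all genes. All 3 promoters were rich in CpG by the limits above, and 65.2% of all such promoters had a HIF1α start-site peak with iAs. NDUFV2 also had a HIF1α peak in both conditions 34020 and 33919 bp past its start, of 582 bp in control and 952 bp with iAs, which lay 62 and 163 bp from the start of ANKRD12. With the same number of widest peaks in each condition, which left out iAs peaks narrower than 356 bp, NDUFV1 kept its start-site peak and NDUFS1 and NDUFV2 did not.

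Among the core subunits on the ubiquinone side, NDUFS3 and NDUFS7 had a HIF1α start-site peak in both conditions and NDUFS8 had none in either. NDUFS7, an iron-sulfur subunit next to the ubiquinone pocket, had the widest member peak in each HIF1α library, 648 bp in control and 961 bp with iAs (chr19:1383394-1384354). The control peak and the iAs peak both cover the CACGTG printed above. NDUFS7 had a second iAs peak of 234 bp in exon 8, in the 3′-UTR. NDUFS3 had 358 bp in control and 432 bp with iAs, and with iAs only a HIF1α peak of 311 bp at -13261 bp, which is 214 bp from the start of PTPMT1, a mitochondrial phosphatase of cardiolipin synthesis. The HIF1α peak of NDUFS8, another iron-sulfur subunit, with iAs (603 bp) lay 13 bp from the start of TCIRG1, a subunit of the vacuolar proton pump.

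Of the 10 accessory subunits of the matrix arm, 5 had a HIF1α start-site peak in control and 5 with iAs, but not the same 5. Each share was 50% (23.7% to 76.3%), beside 16.7% of all genes in control and 42.6% with iAs. NDUFA6, a small protein that docks the acyl carrier protein, had 354 bp in control and 459 bp with iAs in intron 1, and a further peak of 368 bp at -297 bp with iAs. Its control library also held a peak of 262 bp at the start of SMDT1, a regulator of the mitochondrial calcium uniporter, that the iAs library lacked. NDUFA7 had 252 bp and 298 bp over its start, which lies 121 bp from the start of RPS28, a ribosomal protein gene on the other strand. Both of these peaks were centred slightly nearer to the RPS28 start (58 and 52 bp). With iAs NDUFA7 also had a peak of 495 bp downstream, 42 bp from the start of CD320. NDUFS6, a zinc-binding subunit, had 265 bp in control and 629 bp with iAs, which is a ratio of 2.37, the largest among overlapping start-site peaks of the members. With iAs it also had a HIF1α peak of 720 bp at -1785 bp, nearer to MRPL36, a mitochondrial ribosome gene. NDUFV3 had 226 bp and 272 bp at the same site and a separate peak of 533 bp over its start with iAs. Another NDUFV3 peak with iAs, of 664 bp, lay 318 bp from the start of WDR4. Both NDUFS6 and NDUFV3 thus gained covered bases around the start with iAs.

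NDUFAB1, the mitochondrial acyl carrier protein, had HIF1α peaks with iAs only, of 301 bp over its start and 254 bp in intron 1. NDUFA5 was the reverse, with a HIF1α peak over its start in control only (354 bp, chr7:123197788-123198141). NDUFA2, NDUFA9, NDUFA12 and NDUFS4 had no peak in any library. NDUFS4 is a gene whose loss causes Leigh syndrome, and its nearest HIF1α peak with iAs was 627244 bp away, the farthest of the 8 members without a peak.

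Of the 20 accessory subunits of the membrane arm, 7 had a HIF1α start-site peak in control (35%, 18.1% to 56.7%), beside 16.7% of all genes. With iAs 13 had one (65%, 43.3% to 81.9%), beside 42.6%. NDUFB2 had 298 bp in control and 631 bp with iAs, reaching from intron 1 back across its start. NDUFB7 had 222 bp and 432 bp over its start, and these were the largest widenings among overlapping start-site peaks in the arm. NDUFB1 had 504 bp in control and 434 bp with iAs, and NDUFB5 had 424 bp and 365 bp, narrower with iAs. The NDUFB1 start lies 263 bp from that of CPSF2, a subunit of the mRNA polyadenylation machinery, and the NDUFB5 start lies 156 bp from that of MRPL47, a protein of the mitochondrial ribosome. Both NDUFB1 peaks were centred nearer to the CPSF2 start (1 bp in control, 121 bp with iAs), and the control peak did not cover the NDUFB1 start. The NDUFB5 control peak was centred nearer to MRPL47 (60 bp) and its iAs peak nearer to NDUFB5 (21 bp). NDUFA10, a nucleoside-kinase-like subunit, had 567 bp in control and 335 bp with iAs, a ratio of 0.591 that was the lowest among overlapping start-site peaks. NDUFA1, an X-linked gene, had a peak in each condition that did not overlap the other, of 235 bp at -867 bp in control, nearer to RNF113A, and of 190 bp at -34 bp with iAs.

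The membrane-arm genes NDUFA11, NDUFB6, NDUFB8, NDUFB9, NDUFB10, NDUFB11 and NDUFC2 had a HIF1α start-site peak with iAs only, from 230 bp at NDUFB11 to 490 bp at NDUFC2. NDUFB8 had 330 bp in intron 1, and upstream of it a HIF1α peak in both conditions (208 bp in control, 278 bp with iAs) sat 124 and 0 bp from the start of HIF1AN, the hydroxylase that restrains HIF1α activity. NDUFB10 had 461 bp in intron 1 with iAs, and peaks in both conditions at RPS2 (308 and 750 bp) and TBL3 (234 and 300 bp). NDUFB6 had 256 bp over its start with iAs, and a downstream peak of 230 bp in control and 368 bp with iAs next to SMIM27. NDUFB11, also X-linked, had its 230 bp peak nearer to the start of RBM10 (119 bp) than to its own. NDUFB3 had a HIF1α peak of 224 bp in control only (chr2:201936499-201936722), and NDUFC1 had 231 bp in exon 3 in control only. NDUFA8, NDUFA13, NDUFB4 and NDUFS5 had no peak in any library.

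**Figure D2:**
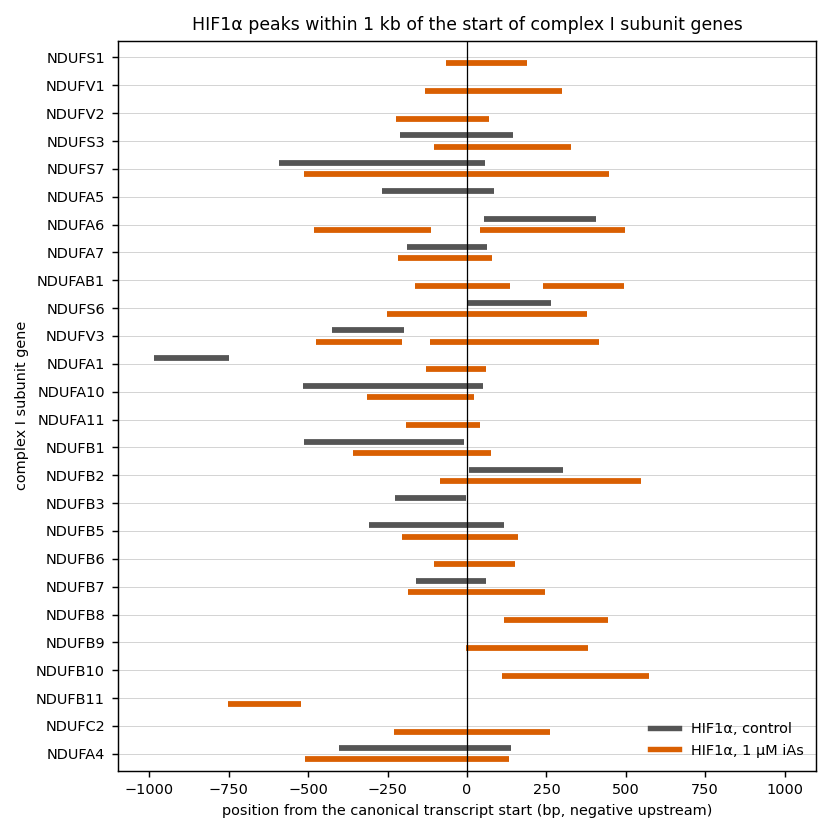
HIF1α peaks within 1 kb of the start of 26 members that have one, drawn as bars from the first to the last base in bp from the canonical transcript start, in grey for control and orange for 1 µM iAs. The bars reach across the start in 8 of 15 control peaks and 20 of 27 iAs peaks drawn, and NDUFA5 and NDUFB3 have a grey bar alone.

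NDUFA4, long counted as a complex I subunit and now placed with complex IV, had peaks of both factors in both conditions over its start. The Nrf2 peak was 505 bp in control and 766 bp with iAs, and the HIF1α peak was 540 bp and 642 bp (chr7:10979648-10980289 with iAs). NDUFA4 and NDUFA10 were the 2 members with a start-site peak in all 4 libraries, where 1.19% of all genes had such peaks.

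Counted by condition, 14 start sites had a HIF1α peak in both conditions, beside 14.8% of all genes, 11 with iAs only (27.7%), 2 in control only, NDUFA5 and NDUFB3 (1.85%), and 11 in neither (55.6%). An iAs-only peak, one that overlapped no control peak of the factor, lay within 1 kb of the start of 14 members, beside 31.1% of all genes, and within 10 kb of 19, beside 43.5%. The shares of the members were 36.8% and 50%, and both backgrounds lay inside their intervals (23.4% to 52.7% and 34.8% to 65.2%). A control-only HIF1α peak lay at the start of 3 members (NDUFA1, NDUFA5 and NDUFB3), beside 2.74% of all genes, and within 10 kb of 5, which adds NDUFA6 and NDUFC1, beside 10.5%. The lower limit of the share at the start, 2.72%, was below the background.

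**Figure D3:**
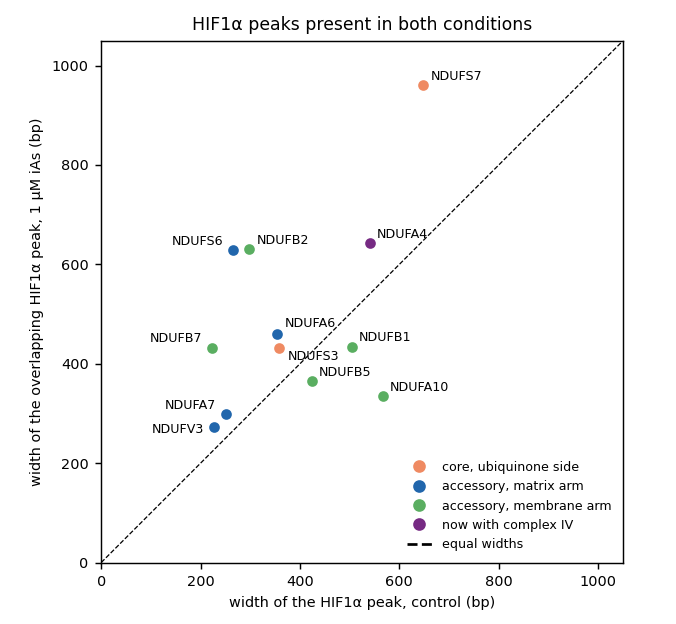
Width in bp of the HIF1α start-site peak in control (x axis) against the width of the overlapping peak with 1 µM iAs (y axis) for 12 members with overlapping peaks, coloured by role, with a dashed line for equal widths. NDUFS6, NDUFB2, NDUFB7 and NDUFS7 lie above the line and NDUFA10, NDUFB1 and NDUFB5 below it.

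At the 13 overlapping start-site peaks, 9 were wider with iAs, with a median ratio of iAs to control of 1.20 (0.591 to 2.37). Over all genes, 82.6% of 2501 such peaks were wider and the median ratio was 1.58. The median width of all start-site peaks of members was 326 bp in control (16 peaks) and 366.5 bp with iAs (28 peaks), beside 298 bp and 366 bp over all genes. Over all start-site peaks, the members' medians were thus close to those of all genes. At the overlapping peaks alone, the members' medians were 354 bp in control and 432 bp with iAs, beside 311 bp and 525 bp. Width depends on the caller and the read depth, which are not stated for these lists.

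Some peaks near members lay at other genes. Of the 24 HIF1α member peaks in control, 12 were nearer to another gene's start than to the member's, and with iAs 16 of 41 were. Of those outside the 1 kb around the member's start, 7 of 8 in control and 11 of 13 with iAs lay within 1 kb of another start. Among the members, 14 of the 38 had a protein-coding start on the opposite strand within 1 kb, against 9.93% of all genes. At these shared promoters 6 had a HIF1α peak in control (42.9%, 21.4% to 67.4%) and 8 with iAs (57.1%, 32.6% to 78.6%), beside 40.9% and 69.5% of all genes with such a neighbour. At the 24 other members 10 had a peak in control (41.7%, 24.5% to 61.2%) and 17 with iAs (70.8%, 50.8% to 85.1%), beside 14% and 39.6% of the other genes. At the shared promoters the background thus lay inside the members' interval in both conditions, and at the others it lay below the interval. Which of the paired genes a peak belongs to cannot be told from these lists.

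Nrf2 peaks were few. Within 10 kb, 5 members had a Nrf2 peak in control (13.2%, 5.75% to 27.3%), beside 10.6% of all genes, and 7 with iAs (18.4%, 9.22% to 33.4%), beside 19.6%. Genes of similar length would give 3.09 and 5.76 members. At start sites, 3 had one in control (7.89%, 2.72% to 20.8%), beside 2.32% of all genes, and 4 with iAs (10.5%, 4.17% to 24.1%), beside 5.17%, where genes of similar length would give 0.989 and 2.0 members. An iAs-only Nrf2 peak lay near NDUFA5 and NDUFS3 alone (2 members), beside 13.7% of all genes, and a control-only Nrf2 peak near none (0 of 38, which allows up to 9.18%), beside 0.813%. The background lay inside the members' interval within 10 kb in both Nrf2 libraries and at the start with iAs, and below it at the start in control, where the count rests on 3 genes.

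NDUFA10 had a Nrf2 peak of 550 bp in control and 530 bp with iAs upstream of its start. NDUFA11 had 324 bp and 362 bp over its start. NDUFS3 had 196 bp with iAs only, at -342 bp and 238 bp from the start of KBTBD4. NDUFS6 had Nrf2 peaks of 376 and 379 bp at -8325 and -8258 bp, far from its HIF1α start-site peak. NDUFA3 had peaks of both factors in both conditions, all about 12.8 kb past its start and 45 to 113 bp from the start of TFPT, a chromatin remodelling component.

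Peaks of both factors lay within 10 kb of 4 members in control, beside 6.46% of all genes, and of 6 with iAs, beside 14.9%. They overlapped each other at NDUFA3, NDUFA4 and NDUFA10 in both conditions and at NDUFA11 with iAs, whereas those of NDUFS6 and NDUFS3 lay at separate places.

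The TGACTCA letters, the core that Nrf2 elements share with AP-1 sites, are shown for the members whose Nrf2 peaks hold them, NDUFA5 and NDUFS6, in capitals and along the plus strand of hg19. The 181 bp Nrf2 peak of NDUFA5 lay in exon 5, in the 3′-UTR (chr7:123178279-123178459), was found with iAs only, and held the letters at chr7:123178351-123178377 and chr7:123178384-123178410. The control Nrf2 peak of NDUFS6 held them away from its centre (chr5:1793067-1793093). Its iAs peak held the same letters near its edge (chr5:1793074-1793093).
NDUFA5, site 1: agtcactacaTGACTCActattttact
NDUFA5, site 2: tctagaatacTGACTCAtctctagtct
NDUFS6: tctgaggcaaTGACTCAactctgctgt

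Within 100 bp of the peak centre on either side, TGACTCA or TGAGTCA was in 0 of 5 member Nrf2 peaks in control and 1 of 7 with iAs (NDUFA5), beside 47.8% and 38.3% of all Nrf2 peaks. Of these member peaks 3 and 4 were start-site peaks, and over the Nrf2 start-site peaks of all genes the share was 12.8% and 11.8%. Over whole peaks the counts were 1 of 5 and 2 of 7, beside 58.4% and 51.5%. The longer element TGACTCAGC, which contains TGACTCA, was in none of the member peaks, beside 23.8% and 15.6% of all Nrf2 windows and 9.5% and 5.55% of those at start sites. NDUFA3, NDUFA4, NDUFA10 and NDUFA11, with Nrf2 peaks in both conditions, held neither element anywhere in them.

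The promoter letters were counted in the 250 bp before and 50 bp after the start of every gene, on both strands. ACGTG was in 10 members (26.3%) and 23.2% of all promoters, and GCGTG in 18 (47.4%) and 44.9%, so the HIF core letters were about as common as elsewhere. The letters of nuclear respiratory factor 1, GCGCATGCG, were in 5 members (NDUFA5, NDUFA8, NDUFB4, NDUFS6 and NDUFS7; 13.2%, 5.75% to 27.3%), beside 2.69%. AAGATGGCG, the letters bound by YY1, were in 7 (NDUFA6, NDUFA7, NDUFA9, NDUFB8, NDUFS4 and NDUFS7 among them; 18.4%, 9.22% to 33.4%), beside 2.82%. CCGGAAG, of the ETS family, was in 8 (21.1%, beside 14%), CCAAT in 9 (23.7%, beside 35.9%), and TGACTCA or TGAGTCA in 0 (beside 3.57%). GCGCATGCG and AAGATGGCG were thus more frequent in members than in all promoters by more than the counting interval, among 8 motifs counted and with no test.

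Of the 10 members with ACGTG, 6 had a HIF1α start-site peak in control and 9 with iAs, all but NDUFA12. Of the 28 without it 10 and 16 had one. The intervals with and without ACGTG overlapped, at 31.3% to 83.2% against 20.7% to 54.2% in control. With iAs they were 59.6% to 98.2% against 39.1% to 73.5%. Over all genes the shares were 23.8% and 51.3% with ACGTG and 14.5% and 39.9% without. Of the 5 members with GCGCATGCG, 3 had a HIF1α peak in control and 2 with iAs (60% and 40%, beside 24.7% and 57.2% of all genes with it). Of the 7 with AAGATGGCG, 4 and 5 had one (57.1% and 71.4%, beside 38.7% and 68.0%). In the windows around HIF1α start-site peaks of members, ACGTG was in 6 of 16 in control and 7 of 28 with iAs, beside 26.5% and 19.2% of all start-site peaks. GCGTG was in 5 of 16 and 10 of 28, beside 44.5% and 41.4%, and over whole peaks in 8 of 16 and 18 of 28, beside 58.1% and 63.1%.

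The 8 members without a peak in any library were NDUFA2, NDUFA8, NDUFA9, NDUFA12, NDUFA13, NDUFB4, NDUFS4 and NDUFS5, where 38.6% of all genes had none. Their nearest HIF1α peak with iAs lay between 16895 bp (NDUFA2) and 627244 bp (NDUFS4) away. A list without a peak says that none was called and not that the factor was absent.

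Other genes of oxidative phosphorylation were counted the same way at their start sites, beside 16.7% of all genes in control and 42.6% with iAs. Of 16 complex I assembly factors, 7 had a HIF1α peak in control and 12 with iAs, among them NDUFAF4, FOXRED1 and TMEM126B with iAs only. For complex II, whose list also held assembly factors such as SDHAF1 and SDHAF2, the counts were 2 and 4 of 8. For complex III they were 2 and 4 of 9, for complex IV 2 and 3 of 10 and for ATP synthase 4 and 10 of 16. A list of genes known to respond to HIF, most of them mitochondrial but with MXI1 among them, had 3 and 8 of 9. In this list NDUFA4L2, the paralogue of NDUFA4 that is induced in hypoxia, had a start-site peak with iAs only. Regulators of mitochondrial biogenesis had 4 and 8 of 11, among them TFAM with iAs only. The intervals of these short lists overlapped those of the complex I subunits.

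**Figure D4:**
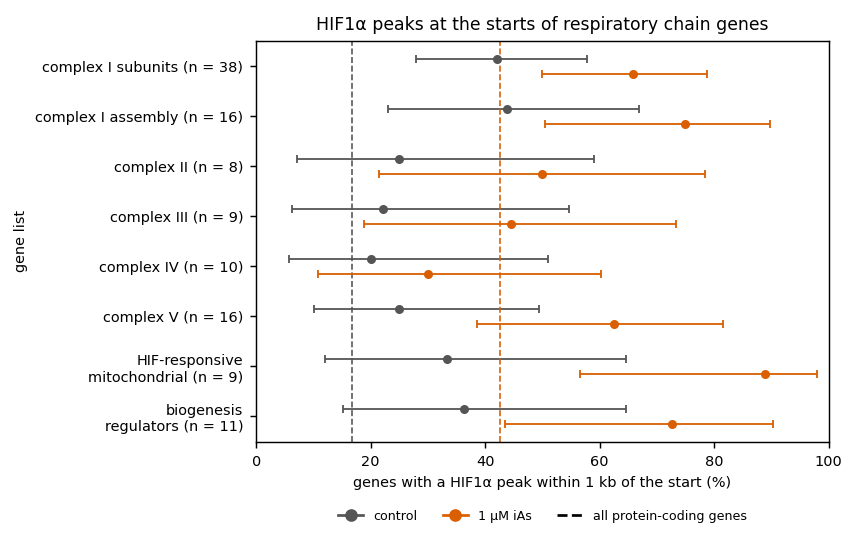
Share of genes in each list with a HIF1α peak within 1 kb of the start, in percent, with Wilson 95% intervals over genes, in grey for control and orange for 1 µM iAs; the dashed lines mark all protein-coding genes (16.7% and 42.6%). The complex I subunits sit at 42.1% and 65.8%, and the intervals of all lists overlap theirs.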

How the data were processed

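The authors aligned reads with BWA, down-sampled tags within a group, and called peaks by MACS or SICER (the labels list MACS2 2.1.0; which caller made each list is not given in the sources used here). They deposited hg19 intervals of 4 libraries, with no heights, scores or counts, and 21088 merged regions, which were not used. Intervals were read as base positions, counted from 1 and used without rescaling. Members and gene lists were chosen with earlier results of these data known. Peaks were assigned to genes with NumPy 2.4.6 and SciPy 1.17.1 under Python 3.11.15, and the member counts were recounted with bedtools 2.31.1, which gave equal counts. Sequences were read with pysam 0.24.0 and plots drawn with Matplotlib 3.10.9. The steps were tested on simulated data. Mitochondrially encoded genes were left out. The values of 1 member are not reported here, and it is counted in totals but not drawn. Named in full were members with HIF1α peaks in both conditions, with any Nrf2 peak, with a control-only peak, and the 5 widest HIF1α start-site peaks with iAs; members without a peak were named, and the rest were given by counts, range and up to 10 examples by role. Promoter stretches were taken for up to 6 members in order of that width. Alternatives were gene distances of 2 kb and 50 kb, start distances of 3 kb, any basic transcript start, the wider 50% of peaks, equal numbers of widest peaks, a reciprocal overlap of 50%, a gap of 1 kb, 10 length bins, whole peaks for motifs, and the family without NDUFA4.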

Additional observations from a re-analysis of the deposited data

Results flagged for a closer look

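The peak counts of NDUFA5 changed in opposite directions for the 2 factors. Its number of Nrf2 peaks within 10 kb changed by 1 with iAs (0 in control, 1 with iAs) and its number of HIF1α peaks by -1 (1 in control, 0 with iAs). Within 10 kb, 9.42% of all genes had a Nrf2 peak with iAs only and 3.31% had a HIF1α peak in control only. The share of all genes with both changes was not counted. At NDUFA5 the Nrf2 peak lay in exon 5 and the HIF1α peak over the start. At 181 bp, the Nrf2 peak had the narrowest width in its library. It was lost with the wider 50% of peaks and with equal numbers of widest peaks. The difference between the factors was not tested, since each value comes from 1 library.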

How the results depend on the processing

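Of 84 recomputed values for the members, 63 stayed within 1.5 times the reported count, or within 1 SD for widths, and 21 moved. Counts at start sites were the same within 3 kb and at any basic transcript start. With the wider 50% of peaks, HIF1α peaks lay at 13 members within 10 kb and 10 starts in control and at 14 starts with iAs; HIF1α iAs-only peaks lay near 11 members and control-only peaks near 3, Nrf2 iAs-only peaks near 0, and peaks of both factors with iAs near 3. With equal numbers of widest peaks, HIF1α with iAs had 14 starts, iAs-only peaks near 9 members and control-only peaks near 11, and Nrf2 had 2 starts and 3 members with iAs, 0 with an iAs-only and 2 with a control-only peak. This choice kept the control lists whole and shortened the iAs lists alone. Within 2 kb, 3 members had a Nrf2 peak in control and 2 had both factors in control. Within 50 kb, 11 had a Nrf2 peak with iAs, 5 a Nrf2 iAs-only peak, 8 a HIF1α control-only peak and 10 both factors with iAs. With a reciprocal overlap of 50%, 9 had a HIF1α control-only peak. Fewer peaks or shorter distances give fewer members by construction; the cause of other shifts was not tested. Of 136 recomputed values for lists, motifs and length-standardised numbers, 25 moved. Read depth and peak strength are unknown, so a missing peak may lie just under the caller's threshold. No paired analysis was possible because each factor had 1 library per condition.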
